A study of Mus musculus with 6 samples.

Results

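Among the open chromatin regions of GL261 cells, 1133 consensus peaks were present at 21% and at 1% O2 and had no shared peak at <0.1% O2. GL261 is a mouse glioma cell line, here stably carrying the green fluorescent protein plasmid pEGFP-N1 in every group, including the control. The cells were held for 16 h at 21% O2 (normoxia, the control), 1% O2 (moderate hypoxia) or <0.1% O2 (severe hypoxia), fixed with formaldehyde, and profiled by ATACseq, in which the Tn5 transposase inserts sequencing adapters into accessible DNA. There were 2 libraries per condition and 6 in all, and the labels do not say that replicates came from separate cultures, so the spread between them may be technical. To choose the members, the peaks of both replicates of a condition were intersected, stretches longer than 200 bp were kept, and the stretches of all conditions were merged into 41308 consensus peaks. Members held a stretch from 21% O2 and from 1% O2 and none from <0.1% O2. They made up 3.86% of the 29330 consensus peaks that held both a 21% and a 1% O2 stretch. Members were thus chosen by the presence of listed peaks in all 6 libraries, so presence and height in these libraries describe the members and were not tested. An exact permutation test of a single peak, with 2 libraries on either side, could not give a p below 0.33.

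Accessible chromatin marks the promoters and enhancers at which DNA-binding proteins keep nucleosomes apart or displaced. Many mammalian promoters lie in CpG islands, are rich in G and C and hold GC boxes bound by Sp and Klf factors, whereas enhancers away from start sites are often bound by AP-1, TEAD, bHLH or CTCF proteins according to the cell type. Oxygen is a substrate of the prolyl hydroxylases that mark HIF for degradation and of the JmjC histone and TET DNA demethylases, so chromatin in hypoxia is of interest beyond the HIF pathway itself.

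The deposited lists held 33006 to 43554 peaks per library, called on each library alone. The height of a peak is given here as the number of fragments stacked at its summit (the summit pileup) divided by the mean fragment coverage of the genome in that library. This coverage was lowest in the 21% O2 libraries (2.16 and 2.36), higher in those of 1% O2 (2.93 and 2.99) and highest in those of <0.1% O2 (3.35 and 3.18), so the libraries in which members were missing were the deepest. Of 10 neural and glioma markers, 8 (*Sox2*, *Nes*, *Vim*, *Cd44*, *Gfap*, *S100b*, *Olig2* and *Pdgfra*) had a promoter peak in all 3 conditions, while *Egfr* and *Sox9* had no promoter consensus peak. The immune and endothelial markers *Ptprc*, *Aif1* and *Cdh5* had none, and *Pecam1* had a promoter peak in 5 of the 6 libraries.

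The sequences below show what the members look like at their summits, beside a pair of peaks that behaved the other way round, present at 21% and <0.1% O2 and missing at 1% O2. Each is a window of 200 bp around the higher 21% O2 summit, on the plus strand of GRCm38 (mm10), and was chosen as the highest peak of its kind that holds the motif named, has its summit inside the peak and overlaps no exon. In the *Marcks* (chr10:37137022-37137221) and *Anp32b* (chr4:46452489-46452688) promoter windows, capitals mark the GC box GGGCGG. In the windows inside *Gas7* (chr11:67588998-67589197) and inside *Iqsec1* (chr6:90700035-90700234), capitals mark the bHLH E-box CAGCTG. In the intergenic window near *Pvr* (chr7:19935174-19935373), and in the windows near *Noct* (chr3:51197392-51197591) and in *A330023F24Rik* (chr1:194963857-194964056), capitals mark the AP-1 motif TGANTCA. The last 2 windows are the pair missing at 1% O2.
Marcks promoter: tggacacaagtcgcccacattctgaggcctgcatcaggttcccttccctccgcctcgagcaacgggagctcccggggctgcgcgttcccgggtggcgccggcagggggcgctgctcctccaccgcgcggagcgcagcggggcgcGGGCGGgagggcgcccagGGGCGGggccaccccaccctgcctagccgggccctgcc
Anp32b promoter: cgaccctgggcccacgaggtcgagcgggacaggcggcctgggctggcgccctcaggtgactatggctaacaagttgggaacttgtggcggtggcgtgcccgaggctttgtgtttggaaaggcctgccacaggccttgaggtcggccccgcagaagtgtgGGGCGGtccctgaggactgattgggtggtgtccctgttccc
Gas7 intron: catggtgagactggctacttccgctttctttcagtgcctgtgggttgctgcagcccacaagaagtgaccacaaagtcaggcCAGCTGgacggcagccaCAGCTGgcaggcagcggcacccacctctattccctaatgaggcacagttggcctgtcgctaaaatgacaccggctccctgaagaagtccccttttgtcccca
Iqsec1 intron: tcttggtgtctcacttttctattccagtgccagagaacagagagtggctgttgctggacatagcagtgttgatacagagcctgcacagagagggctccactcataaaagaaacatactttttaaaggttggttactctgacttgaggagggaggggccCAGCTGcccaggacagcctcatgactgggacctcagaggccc
Near Pvr: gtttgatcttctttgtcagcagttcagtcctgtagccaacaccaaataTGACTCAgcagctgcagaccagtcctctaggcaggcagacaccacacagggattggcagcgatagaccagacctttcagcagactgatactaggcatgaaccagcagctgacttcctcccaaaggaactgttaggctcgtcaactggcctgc
Near Noct: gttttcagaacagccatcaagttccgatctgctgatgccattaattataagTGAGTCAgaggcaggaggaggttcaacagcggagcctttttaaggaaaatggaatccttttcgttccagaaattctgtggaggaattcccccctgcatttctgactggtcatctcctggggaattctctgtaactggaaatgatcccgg
A330023F24Rik intron: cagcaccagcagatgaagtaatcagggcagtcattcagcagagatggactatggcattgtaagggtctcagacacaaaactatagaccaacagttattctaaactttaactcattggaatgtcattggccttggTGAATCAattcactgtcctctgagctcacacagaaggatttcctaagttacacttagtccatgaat

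The promoter windows, chosen for holding a GC box, were 77% (*Marcks*) and 66% (*Anp32b*) G and C. Outside promoters, the member windows were 57.5% (*Gas7*), 51.5% (*Iqsec1*) and 52.0% (near *Pvr*). Those missing at 1% O2 were 46% (near *Noct*) and 41.5% (*A330023F24Rik*). A match of letters describes the sequence and does not show that a protein was bound there.

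Members were weak peaks that had already been weak at 21% O2. Their median height was 11.1 and 12.7 in the 2 libraries at 21% O2 and 12.6 and 11.4 at 1% O2. The 28197 consensus peaks present in all 3 conditions had medians of 28.7 and 34.4 at 21% O2 and 37.2 and 33.1 at 1% O2. Members were also narrow, with a median width of 413 bp against 829 bp. The 465 consensus peaks missing at 1% O2 only, which were 1.62% of the 28662 peaks with a 21% and a <0.1% O2 stretch, had a like width of 411 bp and heights of 9.72 and 10.6 at 21% O2. They are used below as the set most like the members.

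**Figure D1:**
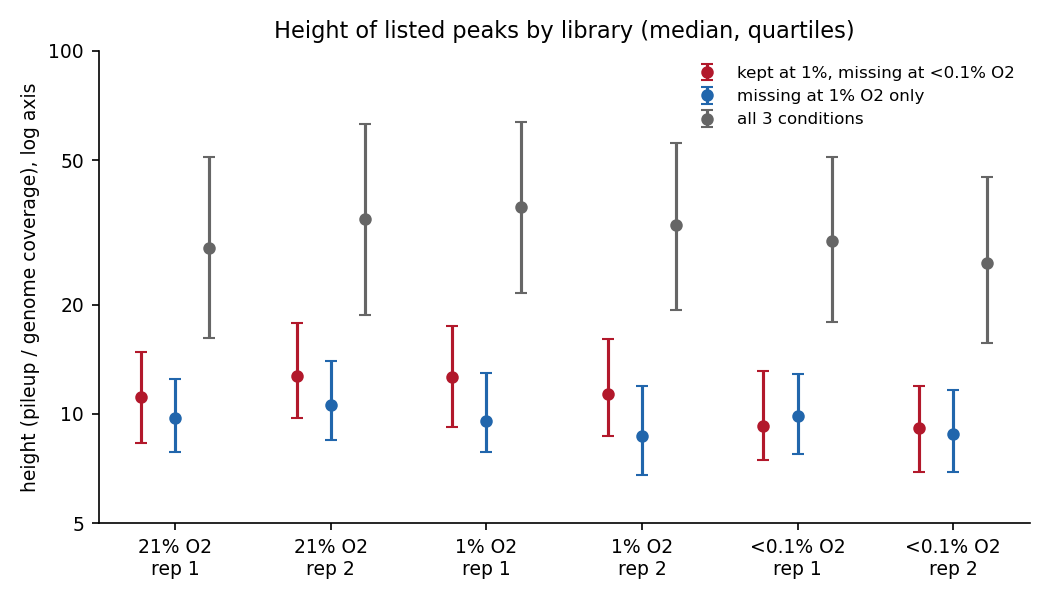
Height of listed peaks (summit pileup divided by genome coverage, log axis) in the 6 libraries, for members (red), peaks missing at 1% O2 only (blue) and peaks of all 3 conditions (grey). Points are medians and bars span the lower to the upper quartile over peaks listed in that library; members sit near 9 to 13 in every library, while the grey medians lie between 26.1 and 37.2.

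Missing had several forms. In 249 members (21.98%, 95% interval 19.6 to 24.5) neither <0.1% O2 library listed a peak. That share depended on the processing, at 4.20% with stretches over 400 bp and 32.0% with equal list lengths. In 631 (55.7%) only <0.1% O2 replicate 1 listed a peak, and in 209 (18.4%) only replicate 2 did. The remaining 44 had peaks in both libraries that shared no base (3 members) or a stretch of at most 200 bp (41 members). The 2 libraries thus contributed unequally, since replicate 2 lacked a peak at 880 members and replicate 1 at 458. Were replicate 2 left out, with replicate 1 standing alone, 458 peaks would be missing, and were replicate 1 left out, 880. Leaving out 21% O2 replicate 1, the shallowest library, raised the number to 2022. Among the peaks missing at 1% O2 only, the split was more even, with no peak in 1% O2 replicate 1 at 256 and in replicate 2 at 279 of 465, and in neither at 103 (22.2%).

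Where a <0.1% O2 library did list a peak on a member, that peak was low. Its median height was 9.26 in replicate 1 (675 members) and 9.12 in replicate 2 (253 members). On the log2 scale the median difference from the mean 21% O2 height of the same members was -0.34 and -0.39. Over all consensus peaks of 21% and 1% O2 listed in the same library it was -0.09 and -0.27, so the median peak was lower in both libraries, and more so in replicate 2.

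A missing peak does not mean a height of 0. For each member without a peak, the pileup that the library would have needed to reach its own smallest listed −log10 p was computed from the background of the same region at 21% and 1% O2. The needed height had a median of 4.78 in replicate 1 and 4.72 in replicate 2, so lower heights than these went mostly unseen. The 21% O2 height of these members was at the median 2.196 and 2.214 times the needed one, and over 2 times at 292 of 458 and 567 of 880 members. Since members had to be listed in both shallower 21% O2 libraries, a ratio near or above 1 follows from the rule, and the size of the ratio is given as a description.

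At 1% O2 the members as a whole stood where they had stood at 21% O2. Both 1% O2 libraries lay below both 21% O2 libraries at 288 members (25.4%), against 17.7% of all 29330 peaks, and above both at 294 (25.9%), against 37.2% of all peaks. At the other 551 members the 4 heights overlapped. The median log2 ratio of 1% over 21% O2 height was within 0.01 of 0, with quartiles of -0.29 and 0.28, where all peaks had a median of 0.12. The replicates of a condition themselves differed by a median of 0.21 (21% O2) and -0.13 (1% O2) on this scale over the members, so a shift of this size lies within the replicate spread. The 249 members listed in neither <0.1% O2 library leaned lower, with 77 below and 44 above and a median of -0.12. Scaling matters here. When heights were divided by the library's median over the peaks of all 3 conditions, an alternative chosen after seeing the data, 461 members (40.7%) were below and 194 (17.1%) above, against 36.3% and 30.2% of all peaks, and the members' median was -0.16.

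The 12 highest promoter members listed in neither <0.1% O2 library lay at *Trio*, *Zc3h4*, *Marcks*, *Tbc1d30*, *S1pr2*, *Actg1*, *Cdsn*, *Maged1*, *Ptpn21*, *Anp32b*, *Kmt5a* and *Irs2*. Here and below, the order of 21% and 1% O2 heights at a single member rests on heights without the rescaling above. Such an order, overlap included, can change with that rescaling. *Marcks*, a protein kinase C substrate that binds actin, had a member at chr10:37136837-37137321, 1599 bp from its start site, with heights of 47.2 and 65.3 at 21% O2 and 57.0 and 46.1 at 1% O2. The 4 heights overlapped, and the nearest peak listed at <0.1% O2 was 1578 bp away. *S1pr2*, a receptor for sphingosine 1-phosphate, had a member across its start site (chr9:20976642-20976882) at 38.0 and 47.9 at 21% O2 and 44.4 and 40.1 at 1% O2, again overlapping. *Actg1*, which encodes cytoplasmic gamma-actin, had a start site member (chr11:120348365-120348855) at 43.1 and 36.9 at 21% O2 and at 32.8 and 32.1 at 1% O2, so both 1% O2 libraries were lower.

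Several others were also lower in both 1% O2 libraries than in both at 21% O2. The member at *Ptpn21*, a tyrosine phosphatase with a FERM domain (chr12:98737192-98737937), stood at 32.0 and 34.8 at 21% O2 and at 25.6 and 25.7 at 1% O2. At *Anp32b*, an acidic nuclear protein and histone chaperone (chr4:46452319-46452692), the heights were 32.9 and 30.1 against 22.5 and 18.04. *Irs2*, an adaptor of the insulin receptor (chr8:11007131-11007425), went from 29.2 and 28.0 to 23.6 and 17.4. *Maged1*, a MAGE family adaptor on the X chromosome (chrX:94540466-94541084), went from 27.8 and 42.4 to 25.6 and 22.7. At these 4 members the heights at 1% O2 thus lay under those at 21% O2, and no peak was listed at <0.1% O2.

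The member at *Kmt5a*, the methyltransferase that adds a single methyl group to lysine 20 of histone H4 (chr5:124445168-124445939), overlapped between conditions at 28.2 and 33.9 against 30.1 and 23.1. *Tbc1d30*, a Rab GTPase activating protein (chr10:121310400-121311199), had 42.6 and 47.1 at 21% O2 and 42.4 and 30.7 at 1% O2, lower in both, though only narrowly in replicate 1. *Cdsn*, corneodesmosin of cornified epithelia (chr17:35550949-35551346), had 29.6 and 42.0 against 32.8 and 26.1. *Trio*, a guanine nucleotide exchange factor (chr15:28024273-28024950), and *Zc3h4*, a zinc finger protein that restrains noncoding transcription (chr7:16400895-16401294), ranked highest only through 1 library each. At *Trio* the heights were 130.1 and 45.8 at 21% O2 and 36.5 and 28.4 at 1% O2, and at *Zc3h4* they were 34.7 and 119.6 against 30.4 and 25.1. In both cases the outlying value came from a wide peak whose summit lay outside the member. Of these 12 genes, 10 kept another promoter peak with a <0.1% O2 stretch, and only *S1pr2* and *Ptpn21* did not. Among all 289 coding genes with a promoter member, 101 (34.95%) kept such a peak.

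**Figure D2:**
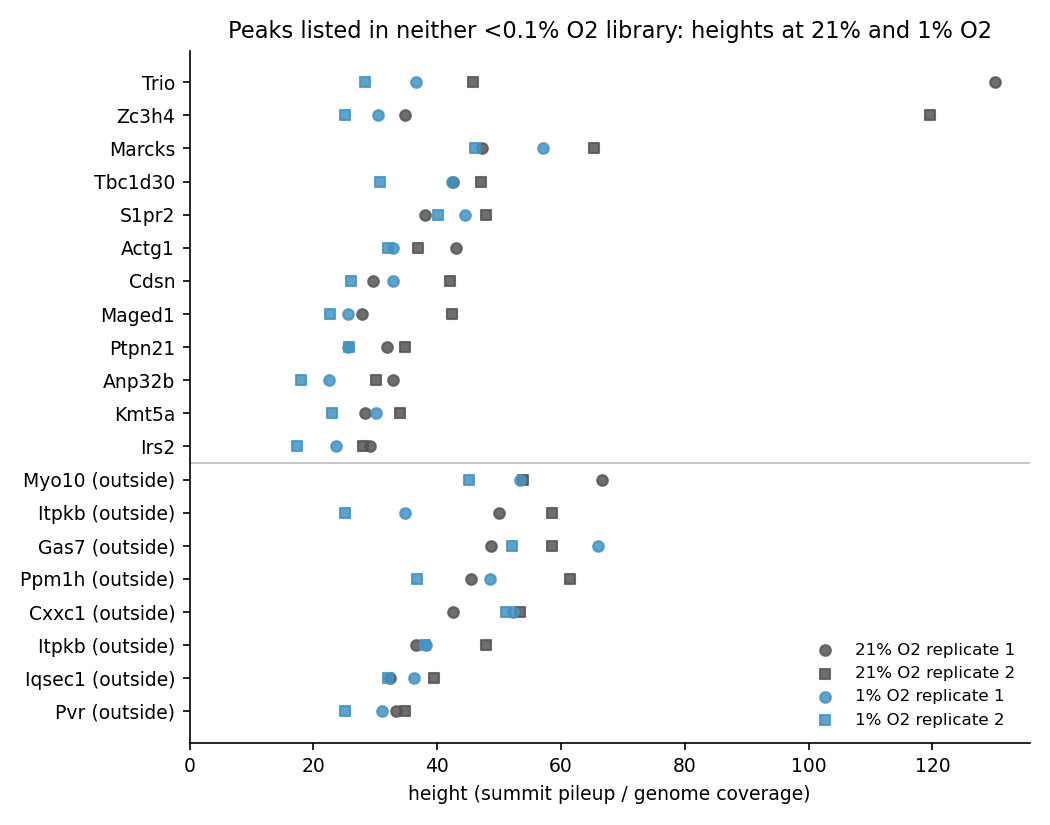
Heights (summit pileup divided by genome coverage) at 21% O2 (grey) and 1% O2 (blue) of the 12 highest promoter members and, under the line, the 8 highest members outside promoters ("outside", named by their coding host gene or nearest coding start site); circles are replicate 1 and squares replicate 2. None was listed in a <0.1% O2 library, and the values 130.1 (*Trio*) and 119.6 (*Zc3h4*) come from wide peaks with a summit outside the member.

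Outside promoters, the highest member listed in neither <0.1% O2 library lay in an intron of the noncoding gene *Gm36642* (chr15:25580809-25581400), 41125 bp from the nearest coding start site, that of the filopodial myosin *Myo10*. Its heights were 66.7 and 53.8 at 21% O2 and 53.3 and 45.1 at 1% O2, with both 1% O2 libraries lower. A pair of members lay inside *Itpkb*, a kinase of inositol trisphosphate. The first (chr1:180390591-180391032) stood at 50.0 and 58.5 at 21% O2 and at 34.8 and 25.1 at 1% O2, while the second (chr1:180408857-180409186) was at 36.6 and 47.9 against 38.3 and 38.1. So 1 of the pair was lower in both 1% O2 libraries and the other overlapped.

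The intronic member of *Gas7*, a regulator of actin and neurite growth (chr11:67588927-67589215), was as high at 1% O2 (65.9 and 52.1) as at 21% O2 (48.6 and 58.5). *Cxxc1*, the CpG-binding subunit of the Setd1 methyltransferase complexes, had a member 2859 bp from its start site with 42.6 and 53.4 at 21% O2 and 52.3 and 51.1 at 1% O2. Without rescaling, heights at both thus overlapped between 21% and 1% O2, with no listed peak at <0.1% O2. The *Ppm1h* intron member (chr10:122887608-122888029), in a phosphatase that acts on Rab proteins, had 45.4 and 61.5 against 48.5 and 36.8, and the *Iqsec1* intron member (chr6:90699995-90700325), in an Arf exchange factor, had 32.4 and 39.4 against 36.2 and 32.1. The intergenic member near *Pvr*, an immunoglobulin family adhesion protein (chr7:19935210-19935616), was lower at 1% O2, with 31.1 and 25.1 against 33.3 and 34.8. Across the 249 members without a <0.1% O2 peak, the nearest listed <0.1% O2 peak was at a median of 5350 bp, and at 17 it lay within 500 bp.

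The members with the shortest 21% or 1% O2 stretch, of 204 bp each, were intergenic near *Gm32996*, in an intron of *Khdrbs3* and at the start site of *Myg1*, with mean 21% O2 heights of 11.4, 7.50 and 10.4. Just outside the rule, peaks in *Rhog*, at *Gm44620* and in *Cpne5* held <0.1% O2 stretches of 201, 201 and 202 bp, with mean 21% O2 heights of 17.7, 10.1 and 9.08.

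Promoters, taken as peaks within 2000 bp of an annotated start site, made up 350 of the members (30.9%, interval 28.2 to 33.7). Introns held 354 (31.2%), intergenic DNA 353 (31.2%), exons 53 (4.68%), 3′ UTRs 22 (1.94%) and a 5′ UTR 1. Position was not used by the rule. The promoter share was 45.8% (45.2 to 46.4) in the peaks of all 3 conditions, 14.2% (11.2 to 17.7) in the peaks missing at 1% O2 only and 21.2% (18.4 to 24.3) in the 769 peaks found at 21% O2 only. It was 38.2% (32.1 to 44.5) in the 249 members listed in neither <0.1% O2 library. Of the 350 promoter members, 205 (58.6%) spanned a start site, against 83.8% of the promoter peaks of all 3 conditions and 18.2% of those missing at 1% O2 only. These intervals cover counting error only, neighbouring peaks are not independent, and no test of the difference was made.

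Height and position were linked, because promoter peaks are tall. The share of peaks missing at <0.1% O2 fell from 11.8% in the lowest height quartile (heights of 4.88 to 16.6) to 2.81%, 0.764% and 0.109% in the higher ones, and 863 of the 1133 members lay in the lowest. Within that quartile, promoter peaks were missing at <0.1% O2 in 15.3% (13.6 to 17.2) and other peaks in 10.8% (10.0 to 11.6). At 1% O2 the same quartile lost 3.34% of promoter peaks (2.46 to 4.42) and 6.66% of others (6.02 to 7.36), the opposite order. In the 3 higher quartiles promoter and other peaks were missing at <0.1% O2 in 2.77% and 2.83%, 0.623% and 0.934%, and 0.101% and 0.127%, with overlapping intervals. In the lowest quartile, promoters were 28.5% of members, 21.1% of peaks of all 3 conditions and 11.4% of peaks missing at 1% O2 only. Heights were not matched between these sets inside the quartile.

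**Figure D3:**
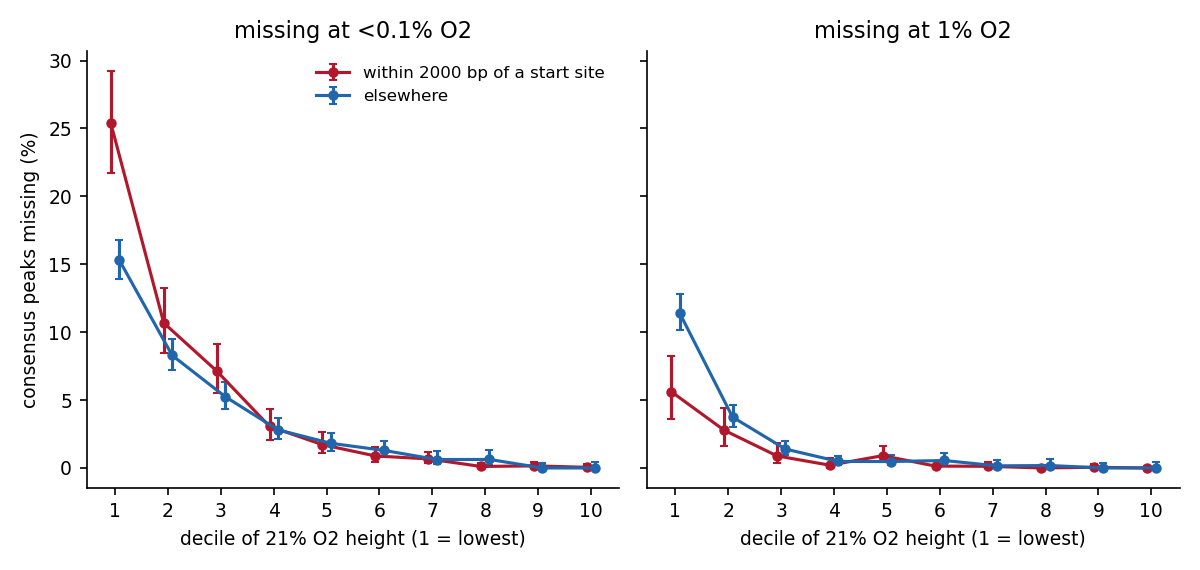
Share of consensus peaks missing at <0.1% O2 (left) and at 1% O2 (right) by decile of mean 21% O2 height, for promoter peaks (within 2000 bp of a start site, red) and other peaks (blue), with exact 95% binomial intervals. In the lowest decile promoters sit above other peaks at <0.1% O2 and below them at 1% O2, and the share missing is highest in that decile.

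Members were richer in G and C than peaks missing at 1% O2 only or found at 21% O2 only, but not than peaks of all 3 conditions. Their median GC content was 52.3% (interval 51.7 to 52.9), against 45.5% (45.0 to 46.3) in the peaks missing at 1% O2 only, 48.5% (47.9 to 49.1) in the peaks found at 21% O2 only and 52.7% (52.6 to 52.9) in the far taller peaks of all 3 conditions. In members listed in neither <0.1% O2 library it was 54.6% (53.3 to 55.8), and over all 41308 consensus peaks 51.3% (51.2 to 51.4). The contrast with peaks missing at 1% O2 only lay in promoters and elsewhere alike. Promoter members had a median of 62.2% and 6.77 CpG per 100 bp, against 49.3% and 1.80 in promoter peaks missing at 1% O2 only. Members elsewhere had 50.4% and 1.49, against 45.2% and 1.05.

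Over all heights, the share missing at <0.1% O2 did not rise with GC content, at 3.34%, 4.71%, 4.04% and 3.37% from the lowest to the highest GC quartile, while the share missing at 1% O2 fell from 4.09% through 1.49% and 0.650% to 0.155%. GC-rich peaks are tall, however. Among peaks of the lowest height quartile, the share missing at <0.1% O2 rose with each quartile of GC content, from 7.50% (6.53 to 8.56) through 11.7% and 14.1% to 22.8% (19.8 to 26.03). The share missing at 1% O2 fell over the same quartiles, from 9.89% (8.80 to 11.1) through 4.21% and 2.84% to 1.57% (0.719 to 2.96). The libraries also differed in how height followed GC content over peaks that were not lost. In the peaks of all 3 conditions, the median height of the highest GC quartile over that of the lowest was 2.16 and 2.25 in the 21% O2 libraries and 2.19 and 2.04 in those of 1% O2, but 1.39 and 1.45 in those of <0.1% O2. This ratio, measured on peaks that include no member, was thus lower in both <0.1% O2 libraries than in the other 4. Its part in the GC content of the members was not tested, and with every <0.1% O2 library alike a GC effect of library preparation and one of severe hypoxia cannot be told apart.

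**Figure D4:**
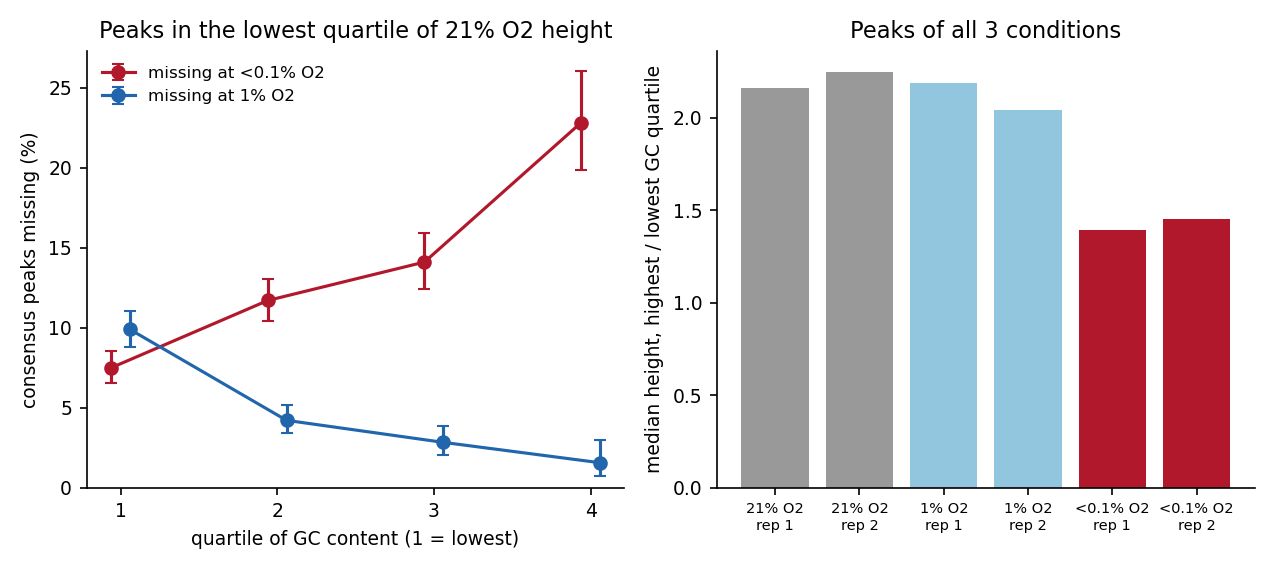
Left, share of consensus peaks in the lowest quartile of 21% O2 height that were missing at <0.1% O2 (red) or at 1% O2 (blue), by quartile of GC content, with exact 95% binomial intervals. Right, median height of the highest over the lowest GC quartile among peaks of all 3 conditions, 1 bar per library; the <0.1% O2 bars reach 1.39 and 1.45 and the other 4 lie between 2.04 and 2.25.

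Of 20 short motifs searched on both strands in the 200 bp around the higher 21% O2 summit, the AP-1 motif TGANTCA, bound by dimers of Fos and Jun proteins, was less frequent in members than in lasting peaks outside promoters. There it stood in 13.9% of members (109 of 783, interval 11.6 to 16.6) and in much the same share, 14.03% (11.4 to 17.1), of peaks found at 21% O2 only. It stood in 27.9% of peaks of all 3 conditions, in 20.6% of peaks missing at 1% O2 only and in 26.6% of all 17076 such windows with a 21% O2 stretch. In members listed in neither <0.1% O2 library it was in 7.14% (11 of 154, 3.62 to 12.4). Within the lowest height quartile the share was 14.4% of members, 27.0% of peaks of all 3 conditions, 19.2% of peaks missing at 1% O2 only and 12.3% of peaks found at 21% O2 only. The TEAD motif GGAATG, bound by the DNA partners of Yap and Taz, followed with 12.6% of members (10.4 to 15.2), 5.19% of those in neither library (2.27 to 9.98), 20.3% of peaks missing at 1% O2 only, 14.9% of peaks found at 21% O2 only and 16.2% of peaks of all 3 conditions. The NF1 site TTGGCA was in 13.2% of members but 4.55% of those in neither library, against 15.4% of peaks of all 3 conditions. At promoters the AP-1 share was 6.29% of members (3.98 to 9.36) and 6.58% of peaks of all 3 conditions, and the TEAD share 8.00% and 8.47%, with overlapping intervals.

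Several other motifs were not scarcer in members than in lasting peaks outside promoters. The bHLH E-box CAGCTG was in 18.1% of members outside promoters (15.5 to 21.0), 9.77% of peaks missing at 1% O2 only (7.04 to 13.1) and 16.4% of peaks of all 3 conditions. The CTCF core GGNGGCAG, whose letters can share bases with a GC box, was in 13.0% of members (10.7 to 15.6), 5.26% (3.29 to 7.93) and 8.27% (7.84 to 8.72) respectively. In peaks found at 21% O2 only, the E-box share was 12.05% (9.56 to 14.9). The CTCF core share there was 10.6% (8.23 to 13.3), an interval that overlaps that of the members. The hypoxia response core ACGTG, bound by HIF and contained in the E-box CACGTG, was in 11.6% of members outside promoters, 8.52% of peaks missing at 1% O2 only and 11.2% of peaks of all 3 conditions, with overlapping intervals. At promoters, the GC box GGGCGG was in 45.4% of members (40.1 to 50.8), 53.8% of peaks of all 3 conditions, 19.7% of the 66 peaks missing at 1% O2 only (10.9 to 31.3) and 25.15% of those found at 21% O2 only (18.7 to 32.5). Within the lowest height quartile the order of the first pair turned, with 39.8% of promoter members and 31.1% of promoter peaks of all 3 conditions. The CCAAT box of NFY was in 20.6% of promoter members (16.5 to 25.2) against 29.5% (28.7 to 30.3) of promoter peaks of all 3 conditions, 19.7% of those missing at 1% O2 only and 23.9% of those found at 21% O2 only. The ETS motif CCGGAAG was in 7.71% (5.14 to 11.03) against 12.2% (11.6 to 12.7), 3.03% and 3.68% of the same sets. The NRF1 motif GCGCATGC was in 0.857% of promoter members (0.177 to 2.48), in 0 of the 95 listed in neither <0.1% O2 library (up to 3.81%) and in 3.56% (3.24 to 3.89) of promoter peaks of all 3 conditions, against 0 of 66 missing at 1% O2 only and 0.613% of those found at 21% O2 only. GC content also differed between these sets (at promoters, medians of 62.2%, 59.5% and 49.3% in members, peaks of all 3 conditions and peaks missing at 1% O2 only), and its part in the motif shares was not tested. A window without a match lacks only these letters.

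**Figure D5:**
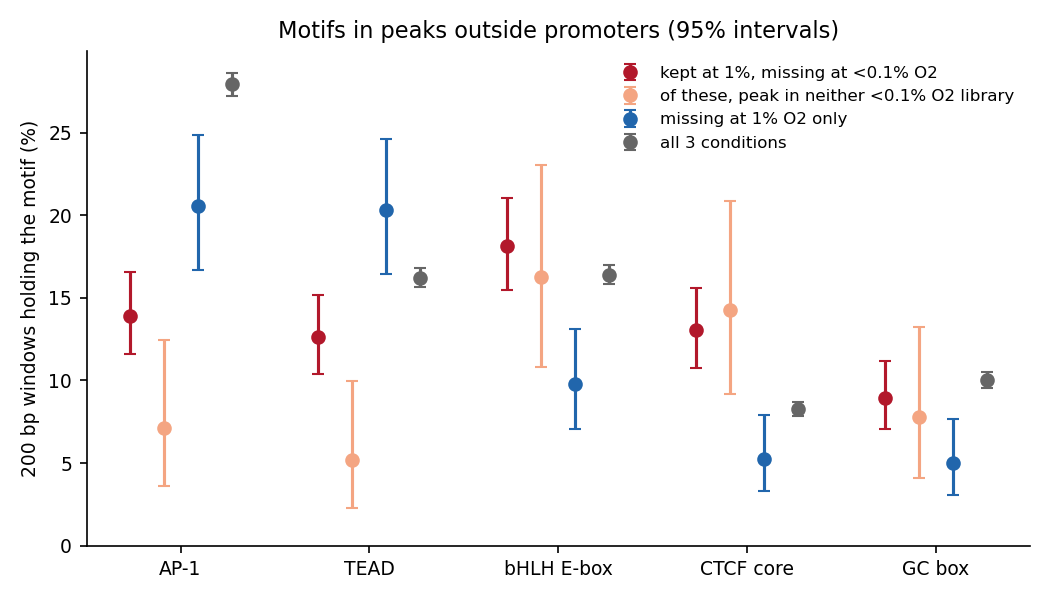
Share of 200 bp windows outside promoters that hold the AP-1, TEAD, bHLH E-box, CTCF core or GC box motif, with exact 95% binomial intervals, for members (red), members listed in neither <0.1% O2 library (orange), peaks missing at 1% O2 only (blue) and peaks of all 3 conditions (grey). The AP-1 share is 13.9% in members, 7.14% in the orange set and 27.9% in the grey set.

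Of 11793 protein-coding genes with a promoter peak at 21% and 1% O2, 289 (2.45%) had a member at a promoter, a single gene with more than 1. At 101 of these genes another promoter peak kept a <0.1% O2 stretch, and at 188 (65.1%, 59.2 to 70.5) no promoter peak did. For 44 of the 188, neither <0.1% O2 library listed a peak on the member. These 44 were singled out after their values were seen. Their members were GC-rich, with a median of 66.4% and 33 over 60%, 37 spanned a start site, and the median 21% O2 height was 10.5. Both 1% O2 libraries lay below both at 21% O2 for 15 of the 44 genes and above both for 9, and the heights overlapped for 20. Over all 29330 peaks of 21% and 1% O2 the shares were 17.7% below and 37.2% above. With the rescaled heights they were 36.3% and 30.2% over all peaks, and the 44 genes were not counted on that scale. The 20 with the highest 21% O2 height are named here.

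After *S1pr2* and *Ptpn21*, the highest of the 44 was *Tgds*, a dehydratase of nucleotide sugars (chr14:118132565-118133029), with 22.7 and 30.1 at 21% O2 and 34.5 and 30.4 at 1% O2. *Ccdc25*, a coiled-coil protein gene (chr14:65837296-65837752), had 18.5 and 20.8 at 21% O2 and 16.1 and 18.4 at 1% O2. Both 1% O2 libraries were thus higher at *Tgds* and lower at *Ccdc25*. *Tesc*, a calcium-binding regulator of sodium-proton exchange (chr5:118027868-118028462), had 19.0 and 19.1 at 21% O2 and was higher in both 1% O2 libraries, at 25.96 and 25.4. *Paqr6*, a membrane progestin receptor (chr3:88363855-88364201), likewise had 17.6 and 14.4 against 22.5 and 25.7, and *Mybpc2*, a myosin-binding protein of fast muscle (chr7:44525042-44525604), 13.9 and 17.8 against 20.8 and 21.7. These 3 genes, like *Tgds*, were among the 9 that stood higher in both libraries at 1% O2 when heights were not rescaled.

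*Mrpl3* of the mitochondrial ribosome (chr9:105053147-105053546) had 13.0 and 12.7 at 21% O2 and 12.3 and 8.69 at 1% O2. The initiation factor *Eif1b* (chr9:120492377-120493291) had 12.5 and 13.6 against 13.3 and 10.4. *Zkscan3*, a zinc finger repressor of autophagy genes (chr13:21402369-21402796), had 12.5 and 13.6 against 10.9 and 11.02, and *Zfp970* (chr2:177464687-177465195) had 15.7 and 14.8 against 10.9 and 10.4. Apart from *Eif1b*, these were lower in both 1% O2 libraries. The member between *Dnttip1*, a subunit of a histone deacetylase complex, and *Wfdc3* (chr2:164745782-164746195) lay at both start regions, with 13.4 and 18.7 against 15.03 and 13.7. Next to these came *Ptprf*, a receptor tyrosine phosphatase (chr4:118290393-118291446; 11.6 and 14.0 against 15.4 and 14.7), the calcium channel gene *Cacna1b* (11.1 and 13.1 against 15.7 and 12.03) and the pacemaker channel gene *Hcn2* (12.04 and 10.6 against 12.6 and 9.69). The remaining named genes were *B630019K06Rik* (12.5 and 14.4 against 12.3 and 7.35), *Shd* (9.72 and 16.1 against 9.91 and 6.68), *Mei4* of meiotic recombination (11.6 and 12.3 against 10.6 and 11.02) and *Htatip2* (8.80 and 14.0 against 13.7 and 12.4).

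The genes of 18 lists for hypoxia, splicing, genome maintenance, signalling and identity were set beside all coding genes. Of their 646 genes with a promoter peak, 11 (1.70%) had a member, near the 2.45% of all coding genes. None was found among 29 HIF target and glycolysis genes, 21 R-loop helicases, 69 DNA repair, 53 DNA replication, 17 p53 target, 24 unfolded protein response, 10 AP-1 family, 54 TGF-beta, BMP, Wnt, Notch and Hippo, 28 cholesterol synthesis, 48 respiratory chain and 22 circadian clock genes. Members stood at 1 of 58 splicing genes (*Hnrnpf*), 1 of 22 glial identity genes (*Ptprz1*), 1 of 32 matrix and adhesion genes (*Itga9*), 3 of 40 receptor tyrosine kinase and MAPK genes (*Met*, *Fgfr2* and *Akt1*), 2 of 68 chromatin modifiers (*Kdm2b* and *Arid1b*), 1 of 20 antigen presentation genes (*Tapbp*) and 2 of 36 cytoskeletal genes (*Actg1* and *Myl9*). Of the 11 genes, 9 kept another promoter peak with a <0.1% O2 stretch, against 101 (34.95%) of all 289 coding genes with a promoter member.

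The exceptions were *Ptprz1* and *Itga9*. *Ptprz1*, a receptor tyrosine phosphatase of glial progenitors, had its member across a start site (chr6:22875277-22875776) at 6.95 and 7.63 at 21% O2 and 9.56 and 6.01 at 1% O2, close to the listing limit, and neither <0.1% O2 library listed it. *Itga9*, an integrin alpha chain (chr9:118606519-118607008), had 13.4 and 9.75 against 14.0 and 13.0, and <0.1% O2 replicate 1 still listed it at 8.36. The low heights at *Ptprz1* overlapped between conditions, as did those at *Itga9*. At *Ptprz1* the 6.01 of 1% O2 replicate 2 came from a summit outside the member.

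Of the genes with another promoter peak, *Arid1b*, a subunit of the BAF remodelling complex (chr17:4994202-4995150), was lower in both 1% O2 libraries, with 23.1 and 20.4 at 21% O2 and 19.1 and 16.0 at 1% O2, and was listed in neither at <0.1% O2. *Akt1*, a kinase downstream of phosphoinositide 3-kinase (chr12:112673061-112673309), showed the same order with 17.1 and 19.5 against 15.03 and 14.4, and 12.9 in <0.1% O2 replicate 1. *Met*, the receptor of hepatocyte growth factor (chr6:17490798-17491209), had 9.72 and 12.3 against 8.54 and 7.35, with 9.12 in <0.1% O2 replicate 2. *Kdm2b*, an oxygen-dependent demethylase of histone H3 (chr5:122989089-122989397), stood higher in both 1% O2 libraries, with 8.34 and 10.6 against 14.7 and 11.4, and 8.96 in <0.1% O2 replicate 1.

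The remaining members on the lists overlapped between 21% and 1% O2. *Tapbp*, the tapasin of peptide loading (chr17:33919434-33919826), had 19.0 and 31.4 against 37.2 and 23.7, with a summit outside the member in 1 library of each condition. *Hnrnpf*, a splicing regulator (chr6:117900624-117901022), had 10.2 and 9.75 against 12.6 and 7.35, and like *Tapbp* was listed in neither <0.1% O2 library. *Myl9*, a myosin regulatory light chain (chr2:156775076-156775784), had 11.6 and 14.8 against 13.0 and 10.4, and 8.36 in <0.1% O2 replicate 1. *Fgfr2*, a fibroblast growth factor receptor (chr7:130266035-130266343), had 7.87 and 9.33 against 8.88 and 8.35, and 7.23 in <0.1% O2 replicate 2. Its 8.88 came from a summit outside the member.

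Members were spread over the genome. On the autosomes they were 3.02% (chromosome 13) to 5.17% (chromosome 6) of the peaks with a 21% and a 1% O2 stretch. On the X chromosome they were 42 of 671 (6.26%, interval 4.55 to 8.37), and peaks missing at 1% O2 only were 2.48% there against 0.604% to 2.17% on the autosomes. Another member lay within 20 kb of 54 members (4.77%), and the like share was not computed for other sets of peaks. At 104 members (9.18%) a peak of all 3 conditions lay within 1 kb, and the median distance to such a peak was 12380 bp.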

How the data were processed

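ATACseq of fixed GL261 cells, 2 libraries per O2 level, was used. Per the labels and the study's methods, the authors trimmed the paired reads (2 × 76 bp) with Trimmomatic, aligned them to mm10 with Bowtie2 2.2.5, removed duplicates with Picard, mitochondrial reads and low mapping qualities, called peaks on each library with MACS2 2.1.1.2 at q 0.001 and dropped peaks in blacklisted regions. Each deposited line holds a peak's fold over local background (a ratio), and its −log10 p-value and −log10 q-value. Reads were not counted here.

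The fold and p-value together fix the whole-number summit pileup and the background, recovered for 100% of peaks. The smallest background was read as genome coverage. This step was tested on simulated data. Where several peaks of a library overlapped a consensus peak, the highest was used. The GRCm38.p6 RefSeq sequence gave GC content and motifs, and GENCODE M21 the start sites. Shares carry exact 95% binomial intervals, which cover counting only, and no test was made. Named are the 12 highest promoter members and the 8 highest others listed in neither <0.1% O2 library, every member at a promoter of the 18 gene lists, and 3 on each side of the rule's threshold, plus the 20 highest sole promoter members, chosen after their values were seen. The members and lists were chosen with earlier results of these data known. Alternatives covered the overlap, the q threshold (−log10 q of at least 5), list length, depth, chromosomes, each library, the meaning of missing, the promoter window and the value compared. Software was scipy 1.17.1, numpy 2.4.6, pandas 2.3.3, pysam 0.24.0, samtools 1.23.1 and Python 3.11.15.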

Additional observations from a re-analysis of the deposited data

How the results depend on the processing

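The number of peaks missing at <0.1% O2 stayed within 1.5 times of 1133 with stretches over 0 or 400 bp, a stricter q, equal list lengths, thinned pileups and autosomes only, and was 249 when missing meant no peak in either <0.1% O2 library. The share with no peak in either was 4.20% with stretches over 400 bp and 32.0% with equal lists. The promoter share was 37.3% over 400 bp, 40.4% with equal lists, 38.2% with no peak in either library and 22.9% within 500 bp of a start site. Median GC content was 53.9% with equal lists, 54.6% with no peak in either library and 53% in the 200 bp around the summit. Leaving out each library gave 458 to 2022 peaks, 23.8% to 25.8% with no peak in either, promoter shares of 26.2% to 33.0% and GC medians of 51.5% to 53.1%. The median log2 ratio of 1% over 21% O2 ran from -0.164 (rescaled heights) to 0.134 (equal lists), so its sign depended on the setting. Causes were not tested. Without a <0.1% O2 library the share with no peak in either is complete by construction and was not computed. Peaks under the listing limit of a library are not seen at its depth. No paired analysis was possible because no result comes from a test.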
